A study of Saccharomyces cerevisiae with 11 samples.

Results

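In budding yeast, 240 of the 3144 open reading frames (ORFs) called in both S288C libraries (7.63%) had a transcript leader under 12 nt long. The leader runs from the cap of an mRNA to the base before its start codon. An ORF was included when the mean of its lengths in the S288C replicates was under 12 nt, so the S288C values chose the ORFs and are given as a description. The series lists 4551 ORFs with a call in any library. Of the 240 ORFs, 227 carry a gene symbol other than their systematic name, and all 240 are annotated as protein coding.

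A ribosomal small subunit normally binds at the cap with the cap-binding complex and scans the leader in the 3′ direction until it meets a start codon. A start codon that lies very close to the cap is known to be recognised poorly, because the bound subunit already covers the first bases, and subunits can then pass on to a later AUG. Short leaders are therefore studied as a source of weak initiation and of proteins with alternative N termini.

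TL-seq captures capped 5′ ends, and TATL-seq applies it to gradient fractions, which sort mRNAs by the ribosomes bound to them. The strain Sigma 1278b, of mating type a and marked by ura3, leu2, trp1 and his3, gave 1 library with tobacco acid pyrophosphatase, the enzyme that opens the cap for ligation, and 1 without it. TATL-seq gave 1 library for each of 7 gradient fractions of BY4742, an S288C derivative (MAT α, his3Δ1 leu2Δ0 lys2Δ0 ura3Δ0), and TL-seq with pyrophosphatase gave 2 biological replicates labelled S288C. The growth protocol, which names Sigma 1278b and BY4742, describes rich YPAD medium at 30 °C to mid-log phase. The genotype of the cultures labelled S288C is not given beyond that. The labels do not say which fractions were light or heavy.

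Each library lists 1 leader length per gene and no read counts, so depth and abundance are unknown, and a missing call can come from low abundance, depth or filters. ORF calls numbered 1883 in Sigma with and 204 without pyrophosphatase, 2081 to 2483 per fraction, and 3561 and 3442 in the S288C replicates. Instruments differed too, per the labels, with a HiSeq for S288C and the older Genome Analyzer II for Sigma and TATL-seq. Against S288C, the instrument therefore cannot be told apart from strain or method. Intervals below are 95% Wilson intervals and cover counting error over ORFs, which are not independent replicates.

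The short leaders were close to identical in the S288C replicates. The length was the same in both for 204 of the 240 ORFs (85%), against 75.5% of the other 2904 ORFs, and it differed by 10 nt or more for 12 (5%). Small lengths limit how far replicates can lie apart, so these shares describe the choice. The median was 8 nt, against 41.5 nt for all 3144 ORFs. Lengths were not spread evenly below 12 nt: 30 ORFs had 1 nt in both replicates, 14 had 2 nt, 1 had 3 nt and 11 had 4 nt, and between 6 and 31 ORFs had each length from 5 to 11 nt. Over the 3144 ORFs the lowest S288C length was 1 nt, whereas Sigma and the fractions list 0 nt for some of them.

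The largest differences between replicates belonged to ORFs that entered through 1 short call. AOS1, for a subunit of the SUMO-activating enzyme, had 22 and 1 nt, and NGK1 had 21 and 1 nt. The origin recognition gene ORC4 had 20 and 1 nt. DOC1, of the anaphase-promoting complex, had 2 and 20 nt, VPS28 1 and 18 nt and MSK1, the mitochondrial lysyl-tRNA synthetase gene, 2 and 18 nt. In 14 ORFs 1 replicate reached 12 nt or more. At the limit itself, AOS1, MGP12 (7 and 16 nt) and PXR1 (19 and 4 nt) had a mean of 11.5 nt just inside, and 25 ORFs with a mean of 12 nt lay just outside. Of these 25, AIM20, DJP1, EMA19 and EXP1 had 12 nt in both replicates and AIM21 10 and 14 nt.

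In the libraries that did not choose them, these ORFs again had shorter leaders than most. Sigma had a call for 102 of the 240 (42.5%), against 47.5% of all ORFs. Under 12 nt were 52 of the 102 (51%, interval 41.4 to 60.5), against 13.3% of the 1492 ORFs called there and in both replicates. By the median over the TATL-seq fractions with a call, 105 of 182 were under 12 nt (57.7%, interval 50.4 to 64.6), against 12.9% of 2553. The median length was 11 nt in Sigma (quartiles 4 and 22.75 nt), where other ORFs had 35 nt. In TATL-seq it was 8 nt (quartiles 4 and 18 nt), where other ORFs had 39 nt. The median of the short-leader ORFs was below the lower quartile of the other ORFs in Sigma and in each fraction, while the upper quartile in Sigma, 22.75 nt, overlapped the others' box, which began at 20 nt.

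**Figure D1:**
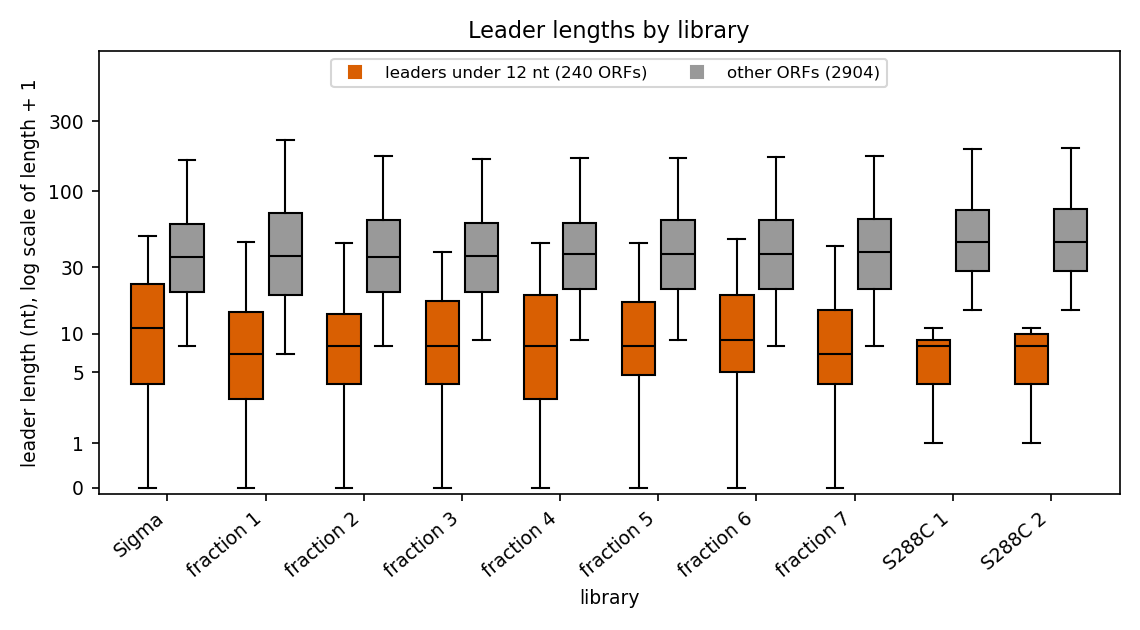
Leader lengths in nt on a log scale of length + 1, in Sigma, in TATL-seq fractions 1 to 7 and in the S288C replicates, for the 240 ORFs chosen by an S288C mean under 12 nt and the other 2904 ORFs. Boxes show median and quartiles and whiskers the 5th and 95th percentiles; the medians of the short-leader ORFs were 11 nt in Sigma and 7 to 9 nt in the fractions, and in S288C the lengths were fixed by the choice.

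Seen from the other side, the short sets overlapped in part. Of 199 ORFs under 12 nt in Sigma and called in both S288C replicates, the 52 were 26.1%, and the other 147 had a median S288C length of 22.5 nt. Of 329 such ORFs in TATL-seq, the 105 were 31.9%, and the other 224 had a median S288C length of 22 nt.

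S288C lengths most often exceeded those of Sigma and TATL-seq by 5 or 4 nt, which bears on the counts at 12 nt, although most ORFs differed by some other amount. Among 1958 ORFs with the same length in both S288C replicates and a TATL-seq call, the most frequent difference of the TATL-seq median from S288C was −5 nt (10.4%), followed by −4 nt (8.27%), and a difference of 0 nt was held by 2.25%. Sigma gave nearly the same picture over 1151 ORFs, with −5 nt in 10.3%, −4 nt in 8.69% and 0 nt in 2.09%. Sigma and TATL-seq, by contrast, had the same length for 615 of 1445 ORFs (42.6%). Whether the S288C files count a length from another base was not tested, since no sequence was used.

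Among the short leaders the same difference was the commonest. Of 115 with the same S288C length of 5 to 11 nt in both replicates, 37 lay 5 or 4 nt lower in TATL-seq (32.2%), against 18.1% of 1803 other ORFs. Over all 155 short-leader ORFs with equal replicates it was 25.2%. In Sigma it was 23.2% of 69 with 5 to 11 nt and 19.3% of all 88, against 19% of 1063 other ORFs. Leaders of 5 to 11 nt cannot lie lower by more than their own length, so nothing is read from the higher shares. The replication origin gene ORC3 had 2 nt in Sigma and in all 7 fractions, against 7 nt in both S288C replicates. IES3, for a subunit of the INO80 chromatin remodeller, had 3 nt in Sigma and 2 nt in all fractions, against 7 nt. AGX1, for alanine:glyoxylate aminotransferase, had 0 nt in Sigma and all fractions, against 5 nt. Leaders of 1 to 4 nt leave little or no room for such a difference, and 2 of the 40 compared lay 4 nt lower and none 5 nt.

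**Figure D2:**
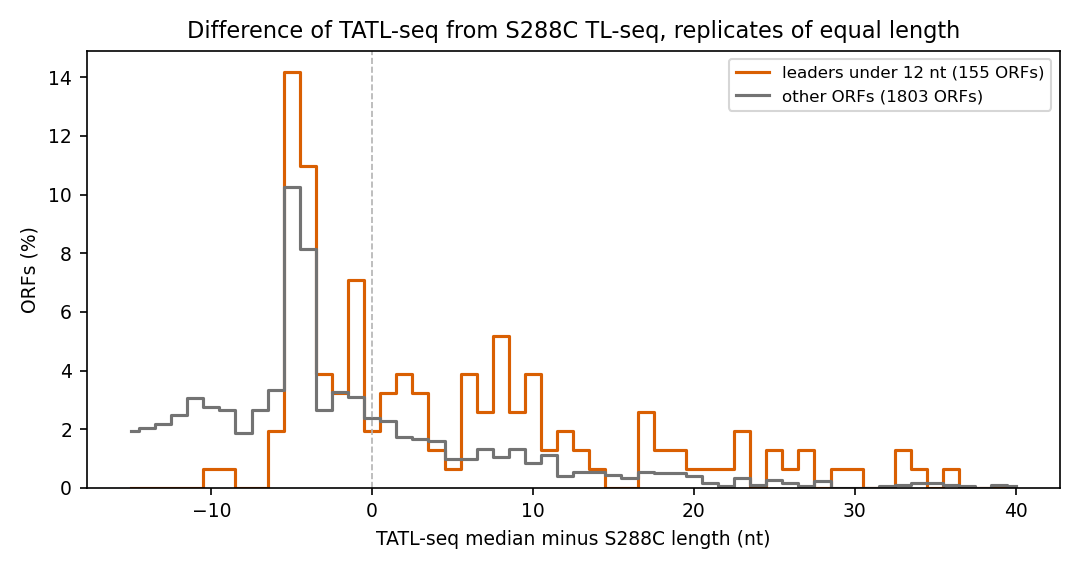
Share of ORFs in % at each difference of the TATL-seq median from the S288C length in nt, for ORFs with equal S288C replicates, 155 with leaders under 12 nt and 1803 others; differences beyond the axis are not drawn. Both lines have their highest point at −5 nt, and the short-leader ORFs, which cannot lie far below 0, extend to the right.

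With Sigma and TATL-seq raised by 5 nt, the shares under 12 nt were 31.4% in Sigma and 39% in TATL-seq. The shares over all ORFs were not computed with this shift, and the unshifted ones are no comparison. With S288C lowered by 5 nt instead, 393 ORFs would lie under 12 nt. Both settings were chosen after the data had been seen.

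Of the 98 ORFs called in Sigma and a fraction, 35 formed a core. These had under 12 nt in both S288C replicates, in Sigma and in every fraction with a call. The library without pyrophosphatase was not part of this rule. Of the 35, 25 were called in all 7 fractions, and 23 had a Sigma length equal to the TATL-seq median. Such equality was held by 43 of the 98 (43.9%) and by 42.6% of all 1445 ORFs compared. Choosing lengths under 12 nt favours equal ones, so nothing is read from the 23. The medians of the 35 were 4 nt in Sigma, 3 nt in TATL-seq and 8 nt in S288C. ATG7, for the activating enzyme of the autophagy conjugation systems, had 8 nt in Sigma and all 7 fractions, against 10 nt in both S288C replicates. DSS4, a nucleotide release factor for the secretory GTPase Sec4, had 7 nt in Sigma and all fractions, against 11 nt in both replicates, and FZF1, a transcription factor of sulfite resistance, 5 nt against 10 nt. BTT1, for a β subunit of the nascent polypeptide-associated complex, had 4 nt in Sigma and all fractions, against 9 nt. In these genes the 7 fractions and Sigma held 1 length, and S288C another.

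Others of the core varied by a few nt. CIN2, a tubulin folding factor, had 4 nt in Sigma and 1, 6, 3, 1, 6, 10 and 6 nt in fractions 1 to 7, against 9 nt in both S288C replicates. FAA3, a long-chain acyl-CoA synthetase gene, had 4 nt in Sigma and 4, 1, 3, 2, 4, 1 and 4 nt in the fractions, against 9 nt. GCV3, for the H protein of the glycine cleavage system, had 4 nt in Sigma and 7, 4, 8, 7, 4, 4 and 4 nt, against 10 nt. FMP52, for a mitochondrial protein, had 0 nt in Sigma and fractions 1 to 6 and 2 nt in fraction 7, against 9 nt. All values of these 4 genes were under 12 nt, and the fractions lay below both S288C values except for fraction 6 of CIN2.

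CLF1, a splicing factor gene, had 0 nt in Sigma and 3 nt in all 7 fractions, against 1 nt in both S288C replicates. SPC19, for a subunit of the Dam1 ring that couples kinetochores to microtubules, had 0 nt in Sigma and in all 7 fractions, against 1 nt in both S288C replicates. A length of 0 nt was held by 10 of the 102 ORFs called in Sigma, and 16 of the 1492 ORFs compared there had it in all. In TATL-seq 11 of the 182 had a median of 0 nt, among them AGX1, AOS1, the autophagy protease gene ATG4 and the mitochondrial nuclease gene NUC1, and 22 of the 2553.

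**Figure D3:**
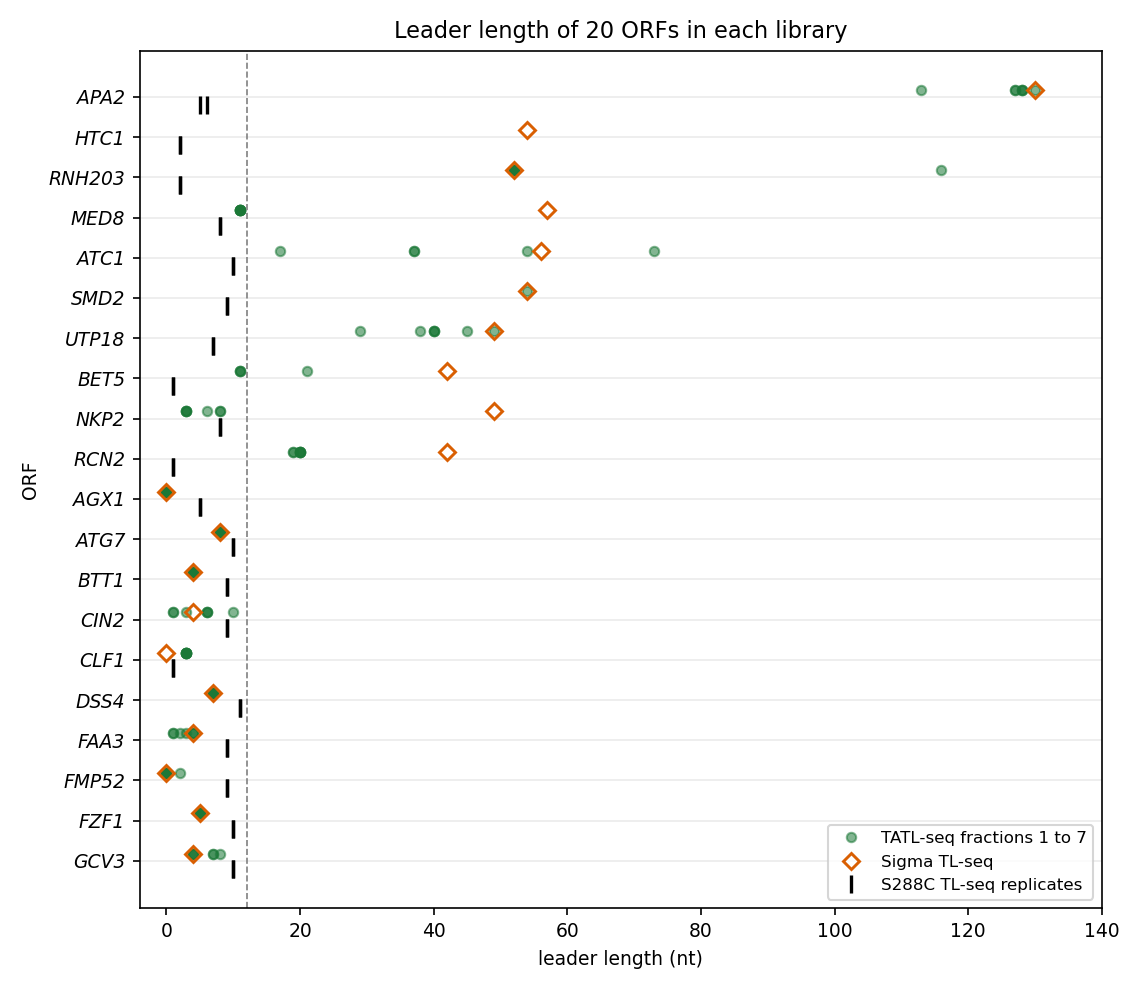
Leader length in nt (horizontal axis) of 20 ORFs, with 1 diamond for Sigma, 1 dot per TATL-seq fraction and 1 tick per S288C replicate. The 10 with the largest excess of Sigma over S288C are above, and 10 whose drawn values were all under 12 nt are below. The dashed line marks 12 nt; APA2 has its dots near the diamond, as has RNH203 except for fraction 7 at 116 nt, while MED8 and NKP2 have dots under 12 nt and diamonds at 57 and 49 nt.

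At the opposite end, leaders short in S288C were long elsewhere. Among the 100 called in Sigma whose S288C replicates differed by at most 10 nt, 33 were at least 10 nt longer in Sigma than in both replicates (33%). Of 176 with a TATL-seq call, 49 were so by the TATL-seq median (27.8%). The shares over all ORFs were 13.2% of 1324 and 13% of 2261, but leaders chosen for short S288C lengths can hardly differ except upwards, so nothing is read from the excess. Against the S288C mean in general, Sigma was lower in 42, equal in 1 and higher in 59 of the 102, and lower in 69% of all ORFs. TATL-seq was lower in 78, equal in 3 and higher in 101 of the 182, and lower in 70.2% of all ORFs.

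Where both comparisons were possible, Sigma and TATL-seq mostly took the same side. Of the 98 ORFs called in Sigma and a fraction, 48 were under 12 nt in both, 34 were at 12 nt or more in both, 13 were under 12 nt in TATL-seq only and 3 in Sigma only. The same split was not computed over all ORFs, so nothing particular to the short-leader ORFs is read from it. Sigma lay less than 10 nt from the TATL-seq median in 81 (82.7%), against 80.3% of all 1445 ORFs compared, and was equal to it in 43 (43.9%, against 42.6%). Agreement of these Genome Analyzer II libraries on the short-leader ORFs was thus close to that on all ORFs. Of the 34 long in both, 29 had Sigma less than 10 nt from TATL-seq.

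**Figure D4:**
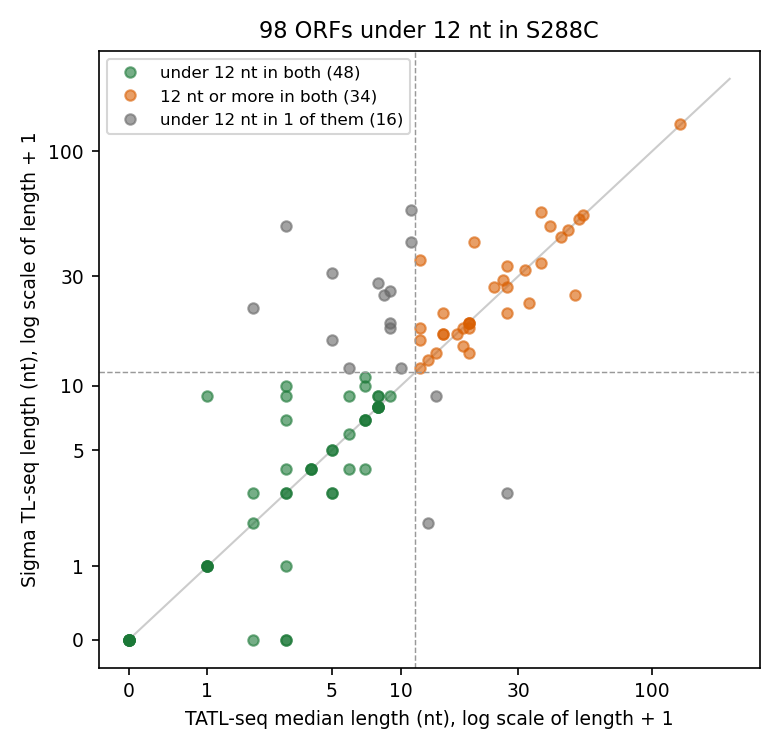
Sigma TL-seq length (vertical) against the TATL-seq median (horizontal), both in nt on a log scale of length + 1, for the 98 ORFs with an S288C mean under 12 nt that were called in both; the grey line marks equality and the dashed lines 12 nt. 48 ORFs lie under 12 nt on both axes and 34 at 12 nt or more on both, most of them near the line.

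APA2, for a diadenosine tetraphosphate phosphorylase, had the largest excess of the ORFs called in Sigma. It had 130 nt in Sigma and 113, 127, 128, 128, 128, 130 and 127 nt in fractions 1 to 7, against 6 and 5 nt in the S288C replicates. Sigma and all 7 fractions thus lay far above S288C. RNH203, for a subunit of ribonuclease H2, had 52 nt in Sigma and fractions 1 to 6 and 116 nt in fraction 7, against 2 nt in both replicates. DYN3, for the dynein light intermediate chain, had 47 nt in Sigma and the 6 fractions called, against 11 nt.

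The same held for further enzymes and RNA factors. DGK1, for diacylglycerol kinase, had 44 nt in Sigma and all 7 fractions, against 10 nt in both S288C replicates. FUR1, for uracil phosphoribosyltransferase, had 34 nt in Sigma and 37 or 38 nt in all fractions, against 8 nt. UTP18, for a processome component of the small ribosomal subunit, had 49 nt in Sigma and 45, 40, 38, 29, 40, 40 and 49 nt in the fractions, against 7 nt. SMD2, for an Sm protein of the spliceosome, had 54 nt in Sigma and in fraction 6, its only fraction, against 9 nt. RPC40, for a subunit shared by RNA polymerases I and III, had 32 nt in Sigma and 3 fractions, against 11 nt. Together with ATC1 these are the 9 ORFs at 30 nt or more in both Sigma and TATL-seq, and none of them overlaps its S288C values.

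In a second kind of ORF, Sigma alone was long. MED8, for a Mediator subunit, had 57 nt in Sigma and 11 nt in all 7 fractions, against 8 nt in both S288C replicates. NKP2, a kinetochore gene, had 49 nt in Sigma and 3, 6, 3, 3, 8, 8 and 3 nt in the fractions, against 8 nt. BET5, for a subunit of the TRAPP vesicle-tethering complex, had 42 nt in Sigma and 11, 11, 21 and 11 nt in fractions 3, 4, 6 and 7, against 1 nt. RCN2, for a calcineurin-interacting protein, lay between, with 42 nt in Sigma and 19 or 20 nt in all fractions, against 1 nt. In these genes the TATL-seq and S288C lengths lay below Sigma, which has 1 library and no replicate to give its error. HTC1 had 54 nt in Sigma, no TATL-seq call and 2 nt in S288C.

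Some ORFs without a Sigma call were long in the gradient. RIO1, for a kinase of small-subunit maturation, had 374 nt in fraction 1 and 382 nt in fraction 7 and no other call, against 1 nt in both S288C replicates. YOR385W had 77, 62, 77, 57 and 97 nt in fractions 2 to 6, against 9 nt. HIS1, for the first enzyme of histidine synthesis, had 59 nt in fractions 4 to 7, against 10 nt. POL31, for a subunit of DNA polymerase delta, had 35 nt in 5 fractions, against 9 nt, and VPS53, of the GARP tethering complex, 35 or 36 nt in fractions 2 to 7, against 2 nt. The TATL-seq median reached 30 nt in 19 of the 182 ORFs and 100 nt in 2, RIO1 and APA2. Over all ORFs this median was 36 nt (quartiles 19 and 66.5 nt), so 30 nt is an ordinary length. A length of 100 nt or more in any fraction was found in 6 of the 182. In fraction 1 it was held by 4 of 102, against 271 of all 1619 ORFs compared. For the counts of 19, 2 and 6, no share over all ORFs was computed.

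ORFs listed at 1 nt in S288C had longer leaders in many other libraries. An ORF at 1 nt can hardly be shorter elsewhere, so this direction follows from the choice. Of the 30 ORFs with 1 nt in both S288C replicates, 11 of 21 called in a fraction were under 12 nt (median 11 nt) and 5 of 12 called in Sigma (median 16 nt). For those with a mean of 5 to 8 nt, 43 of 60 were under 12 nt in TATL-seq (median 5.5 nt) and 16 of 30 in Sigma (median 9 nt). ORFs with a mean of 8.5 to 11.5 nt had a TATL-seq median of 10.5 nt over 78 ORFs, close to that of the ORFs at 1 nt. RAD24, for the loader of the DNA damage checkpoint clamp, had 10 nt in Sigma and 7, 7, 7, 7, 17, 27 and 0 nt in fractions 1 to 7. COQ9, for a coenzyme Q synthesis protein, had 18 nt in Sigma and 8, 9, 6, 12, 12, 12 and 8 nt. SSN8, for the cyclin of the Mediator kinase module, had 25 nt in Sigma and 42, 54, 32, 45, 50, 50 and 54 nt.

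PFS2, KAR9 and DAD4 had 1 length in every fraction called. PFS2, a polyadenylation factor gene, had 9 nt in all 7 fractions. KAR9, which orients the spindle, had 5 nt in the 6 fractions called, and DAD4, of the Dam1 ring, 2 nt in 5 fractions. UGX2 and PRP42 varied more. UGX2 had 25 nt in Sigma and 8, 9, 10, 8, 7 and 9 nt in fractions 1 to 6. PRP42, of the U1 snRNP, had 14 nt in Sigma and 17 to 23 nt in 5 fractions. For 9 of the 30, among them AIM18, the clathrin adaptor gene APM2, the peroxisomal gene PEX22 and SEC18, for the ATPase of membrane fusion, no fraction had a call.

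Along the gradient, the short-leader ORFs had medians of 7 to 9 nt in each fraction. The numbers called in fractions 1 to 7 were 102, 130, 140, 137, 136, 138 and 139, that is 42.5% in fraction 1 and 54.2% to 58.3% in the others. For all 3144 ORFs the shares were 51.5% in fraction 1 and 59% to 61.8% in the others, so fraction 1 was lowest in both. A call in at least 1 fraction was held by 182 (75.8%, interval 70 to 80.8), against 81.2% of all ORFs, and a call in all 7 by 73 (30.4%), against 34.5%. Under 12 nt were 69.6, 66.2, 57.9, 59.1, 58.8, 55.8 and 65.5% of those called in fractions 1 to 7, against 12.1% to 14.5% of all ORFs.

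These shares rest on different ORFs in each fraction. Over the 73 called in all 7, the numbers under 12 nt were 52, 52, 49, 49, 47, 46 and 49, with medians of 7 or 8 nt throughout. The share of all 1086 ORFs called in all 7 fractions that were under 12 nt ran from 11.6% to 14.5%. Fraction 1 held the highest or joint highest number in the fixed set and fraction 6 the lowest, a difference of 6 ORFs.

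The test for a steady trend called no ORF, but it had little power to do so. It took the 795 ORFs with calls in all 7 fractions and at least 1 difference among them, of which 38 had short S288C leaders. The Spearman correlation of length with fraction number, with an exact two-sided permutation over all orders of the fractions and Benjamini-Hochberg adjustment, called 0% of the 795 longer and 0% shorter in later fractions. The lowest adjusted p was 0.7. The smallest p that the orders of 7 distinct lengths can give is 0.000397 in this exact permutation test, which for a single ORF among 795 would adjust to 0.315, so 7 ORFs at that p would have been needed for any to pass. Tied lengths raise the limit further. At an unadjusted p under 0.05 there were 36 of the 795 ORFs (4.53%) and 1 of the 38, LST8, a component of both TOR complexes. It had 9, 24, 20, 30, 24, 30 and 30 nt (rho = 0.805, exact p = 0.0429, adjusted p = 0.7), with 27 nt in Sigma and 11 nt in S288C. ELF1, a transcription elongation factor gene, had 1 nt in fractions 1 and 2 and 15 nt in the other 5 (exact permutation p = 0.0952, adjusted p = 0.7), with 17 nt in Sigma and 9 nt in S288C. Kendall's tau-b called none either, with 28 ORFs and none of the 38 at an unadjusted p under 0.05.

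Single fractions did differ for some genes. Of the 121 short-leader ORFs called in at least 5 fractions, 30 had a range of 10 nt or more (24.8%, interval 18 to 33.2), against 31.2% of 1695 ORFs, and 52 had 1 length throughout (43%), against 31.3%. Of the 30, 19 were under 12 nt in some fractions and at 12 nt or more in others. IZH2, for a membrane protein of zinc homeostasis, had 2 nt in fraction 1, 3 nt in fractions 3 to 5 and 211 nt in fraction 6. YKE4, for a zinc transporter, had 188 nt in fraction 1, against 8, 12, 8 and 15 nt for fractions 2, 3, 6 and 7. RFC3, a clamp loader gene, was listed at 4 nt in fractions 1, 3, 4 and 5 but at 30 nt in fraction 6. In each of these 3 genes, 1 fraction stood apart and none was called in Sigma.

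Other wide ranges had no single outlying fraction. ATC1 had 73, 17, 37, 54 and 37 nt in fractions 2 to 6, with 56 nt in Sigma and 10 nt in S288C. GEP3, for a mitochondrial protein, had 15, 21, 42, 19, 33 and 42 nt in fractions 2 to 7, with 33 nt in Sigma and 9 nt in S288C. THG1, which adds the extra guanosine of histidine tRNA, had 51 nt in fractions 2 to 4 and 27 nt in the other 4, with 3 nt in Sigma and 4 nt in S288C. THG1 is 1 of the 3 ORFs under 12 nt in Sigma but not in TATL-seq, with RTT109 and DIS3.

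By function, the short-leader ORFs were spread over many processes. Of 15 gene lists, 14 held at least 1, and 87 of the 240 ORFs were on a list. Shares are read beside the 7.63% over all ORFs and were not tested. They were highest for the kinetochore, spindle and anaphase-promoting complex (11 of 64, 17.2%), DNA replication and repair (12 of 78, 15.4%), and aminoacyl-tRNA synthetases and tRNA modification (9 of 61, 14.8%). The short-leader ORFs of these lists had median S288C lengths of 1, 8.5 and 8 nt in that order. The share of the spindle list thus rests largely on calls at 1 nt, the lowest S288C length. Among these 14 lists the lowest was that of cytosolic ribosomal proteins, with RPS21A as 1 of 118 (0.847%). RPS21A had 15 nt in all 7 fractions and 9 nt in both S288C replicates.

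**Figure D5:**
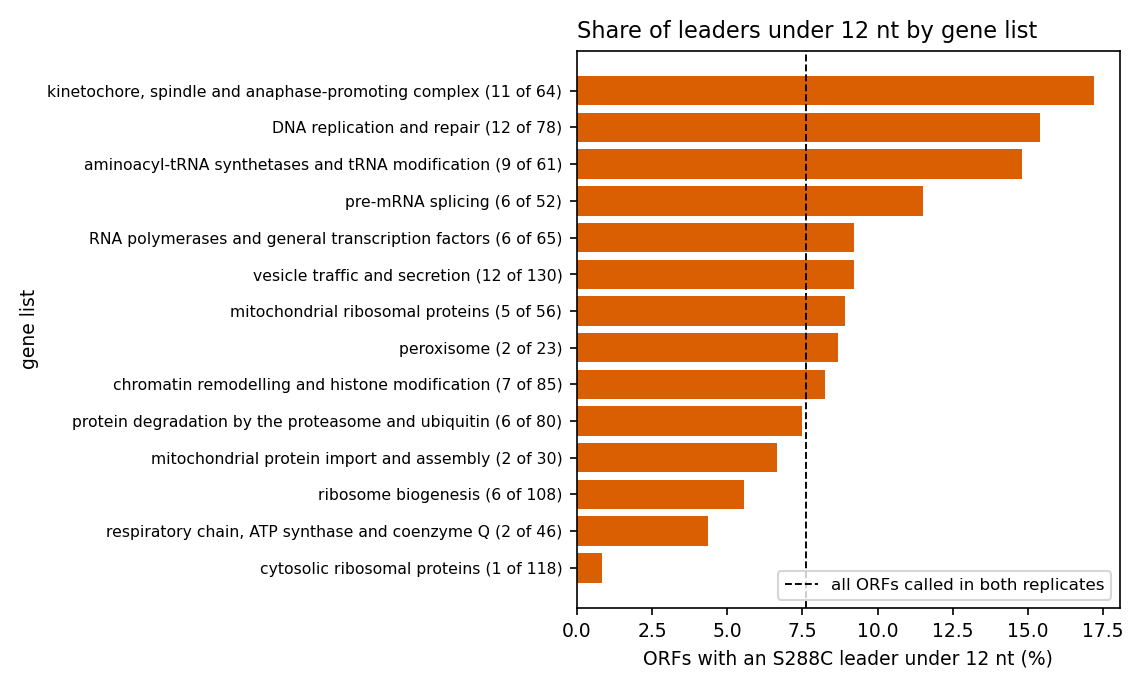
Share in % of the ORFs called in both S288C replicates that had a mean leader under 12 nt, by gene list, with the numbers in parentheses; the dashed line marks 7.63% over all ORFs. The kinetochore list, whose short-leader ORFs had a median S288C length of 1 nt, is at 17.2% and cytosolic ribosomal proteins at 0.847%. The lists were chosen with earlier results known, and the shares were not tested.

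In the spindle list, the ORFs not yet named were the ubiquitin ligase gene APC11, with 1 nt in S288C and 4 nt in fraction 7, its only other call, and the tubulin folding GTPase gene CIN4, with 18 nt in fraction 6 and 1 nt in S288C. CNN1, DOC1 and MCM22 had S288C calls only. Of the 8 members called in a fraction, 6 were under 12 nt by the TATL-seq median, and 2 of the 4 called in Sigma. The other 2 in Sigma were DYN3 and NKP2. The median of the whole list was 31.75 nt in S288C.

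The whole replication and repair list had a median of 38.5 nt in S288C, and of its 12 short-leader ORFs 6 of 6 were under 12 nt in Sigma and 9 of 11 by the TATL-seq median. Single fractions reached 12 nt or more in several of the 9, such as RAD24, SLD5 and RFC3. MUS81, for a nuclease of branched DNA, had 7 nt in Sigma and all 7 fractions, against 9 and 1 nt in S288C. MGT1, which removes methyl groups from guanine, had 1 nt in Sigma and all fractions, against 5 nt. SLD5, of the GINS replication complex, had 9 nt in Sigma and 9, 12, 19, 9, 9 and 9 nt in fractions 2 to 7, against 10 nt. The end-joining gene NEJ1 (13 nt in 5 fractions and 23 nt in fraction 4, against 18 and 4 nt in S288C) and POL31 were the 2 with a TATL-seq median of 12 nt or more.

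Among genes of tRNA, 3 of 3 were under 12 nt in Sigma and 5 of 6 in TATL-seq. PUS4, for a tRNA pseudouridine synthase, had 8 nt in Sigma and all fractions, against 10 nt in S288C. UBA4, which activates the sulfur carrier Urm1, had 0 nt in Sigma and 4 fractions, against 5 nt. PUS1 had 4, 9, 9, 9, 4 and 4 nt in fractions 2 to 7, against 5 nt. FRS2, for a phenylalanyl-tRNA synthetase subunit, had 146 nt in fraction 1 but 6 nt in both later fractions called, against 10 nt, and GRS2, for the second glycyl-tRNA synthetase, 4, 17 and 4 nt in fractions 2, 3 and 7, against 4 nt. The list of genes known to make a long and a short protein from alternative in-frame starts held 2 ORFs called in both replicates, and neither was under 12 nt.

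Splicing genes gave 6 of 52 (11.5%), and 2 of the 6 were under 12 nt in TATL-seq, as were 2 of 6 in ribosome biogenesis. CLF1 and PRP18, with 1 nt in 5 fractions against 6 nt in S288C, were under 12 nt. SNU23 had 8 and 22 nt in fractions 5 and 7 against 11 nt, and YHC1, of the U1 snRNP, 27 and 20 nt in fractions 3 and 4 against 2 nt. In ribosome biogenesis (6 of 108, 5.56%), DBP6 had 7 nt in 3 fractions against 5 nt, and the exosome gene RRP43 4 nt in 3 fractions against 8 nt. ERB1 had 26 nt in fraction 2 against 7 nt, and DIS3, the exosome nuclease gene, 9 nt in Sigma and 8 to 25 nt in 5 fractions against 9 nt.

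Genes of vesicle traffic and secretion made up 12 of 130 (9.23%), with 3 of 7 under 12 nt in Sigma and 6 of 9 in TATL-seq. GOT1, for a Golgi membrane protein, had 8 nt in Sigma and all fractions, against 11 nt in S288C. BET2, for a prenyltransferase subunit acting on Rab GTPases, had 0 nt in Sigma and 0, 0, 3, 6, 0, 14 and 3 nt in the fractions, against 7 nt. DSL1, a tether for Golgi-to-ER vesicles, had 12 nt in Sigma and 10 to 14 nt in the fractions, against 9 nt. PEP12, an endosomal SNARE gene, had 29 nt in Sigma and 26 nt in all fractions, against 9 and 4 nt, and VPS60, of the ESCRT machinery, 17 nt in all fractions, against 10 nt. VPS75 stands on this list by its name but encodes a histone chaperone; it had 0 nt in 5 fractions and 5 nt in S288C.

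Genes of transcription and chromatin gave 6 of 65 for RNA polymerases and general factors (9.23%) and 7 of 85 for chromatin (8.24%). In the first, none of 3 was under 12 nt in Sigma and 1 of 4, MED8, in TATL-seq. TFG1, for a TFIIF subunit, had 10, 14 and 14 nt in fractions 1 to 3, against 11 nt in S288C. In the second, 2 of 4 were under 12 nt in Sigma, IES3 and RTT109, and 1 of 5, IES3, in TATL-seq. The histone acetyltransferase gene RTT109 had 2 nt in Sigma and 5, 15, 13, 13 and 5 nt in the 5 fractions called, against 1 nt. JHD2, a histone demethylase gene, had 15 nt in Sigma and 18, 18, 15, 18 and 18 nt in fractions 3 to 7, against 10 nt. EAF7 had 19 nt in Sigma and 8, 19 and 19 nt in fractions 5 to 7, against 10 nt, and the elongation factor gene SPT5 17 to 19 nt in 4 fractions, against 10 nt.

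The lists of nuclear genes for mitochondria held few short-leader ORFs. These lists are partial, and other genes for mitochondrial proteins, such as FMP52, GEP3 and NUC1, were on none of them. Mitochondrial ribosomal proteins gave 5 of 56 (8.93%), all 5 under 12 nt in TATL-seq. MRPL20 had 6 nt in Sigma and all fractions, against 10 nt in S288C, and IMG1 1 nt in Sigma and 3 nt in all fractions, against 7 nt. MRPS8 had 16 nt in Sigma and 3 to 6 nt in the fractions, against 8 nt. The lists of protein import and assembly and of the respiratory chain gave 2 of 30 (6.67%) and 2 of 46 (4.35%). OXA1, for the inner-membrane insertase, had 2 nt in fraction 3, against 5 nt, and TIM54 and COX18 had S288C calls only. Peroxisome genes gave 2 of 23 (8.7%), where PEX8 had 4, 8 and 8 nt in fractions 3 to 5, against 9 nt.

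Protein degradation by proteasome and ubiquitin gave 6 of 80 (7.5%), and none of the 6 is a proteasome subunit. RUB1, a ubiquitin-like modifier gene, had 2 nt in all 7 fractions, against 6 nt in S288C. UBA3, for the enzyme that activates Rub1, had 17 nt in Sigma and 16 or 17 nt in the fractions, against 8 nt. AOS1 had 0 nt in all 7 fractions, and the deubiquitinase gene UBP5 had 5 nt in fraction 6, against 10 nt. CUE2 and DIA2 had S288C calls only.

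The remaining 153 ORFs were on no list, and the genes named in this and the next paragraph were chosen after their values were seen. A family stood out by its lengths: COS1, COS2, COS3, COS5, COS6, COS7 and COS8, subtelomeric membrane protein genes, each had 8 nt in both S288C replicates. None had a call in Sigma or a fraction. COS genes are close paralogs, and the labels do not say how shared reads were assigned, so the 7 values may not be independent and are uncertain. COS10, also called in both replicates, had 527 nt in Sigma and in fraction 1, against 10 and 544 nt in S288C, and COS4 had 5 nt in fraction 1 alone. COS12, with no S288C call, had 29 nt in Sigma and 26, 48, 26, 43, 26 and 43 nt in fractions 2 to 7.

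In all, 54 short-leader ORFs (22.5%) were called in S288C TL-seq only, against 16.8% of the other ORFs. They include the nucleoporin genes NIC96 and NUP49, the chromatin genes CAC2, RSC8 and RTT106, the RNA polymerase subunit gene RPO26 and the Mediator gene MED7. Their short leaders were thus seen with 1 method and sequencer. Without the COS genes 233 ORFs remain.

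Without pyrophosphatase, 10 of the 240 ORFs had a call (4.17%, interval 2.28 to 7.5), against 5.53% of all ORFs. With the enzyme and without it, BTT1 had 4 and 1 nt, CIN2 4 and 1 nt, GCV3 4 and 4 nt, MGT1 1 and 14 nt, MRX11 9 and 9 nt, the riboflavin synthase gene RIB5 18 and 5 nt, and TAE1, a methyltransferase gene, 4 and 4 nt. LAA2, RUB1 and YCR051W had no call with it and 17, 2 and 5 nt without. Thus 3 of the 7 called in both Sigma libraries had the same length. Without the enzyme, 8 of the 10 were under 12 nt (interval 49 to 94.3), against 28.7% of the 174 ORFs called there. With the enzyme, 51% of the short-leader ORFs called in Sigma were also under 12 nt, so nothing is read from the excess. With 1 library each, no test was possible.

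The RefSeq annotation of assembly R64, which may not be the build behind the S288C lengths, gives the surroundings of these ORFs. A neighbour upstream was found for 237, on the same strand for 45.1% and divergent for 54.9%, against 45.6% and 52.3% of 2903 other ORFs. The gap to that neighbour had a median of 289 nt, against 448 nt for the other ORFs whose start overlaps no neighbour. Among the other ORFs the median gap was 362.5 nt for leaders of 12 to under 20 nt and 653 nt for those of 100 nt or more. This gap runs to the start codon and so contains the leader. From the called 5′ end, the median distance was 282.5 nt for the short-leader ORFs and 377 nt for the others, with 347.25 nt at 12 to under 20 nt and 468 nt at 100 nt or more. None of these differences was tested. No start codon of the 237 lay within a neighbouring ORF, against 2.07% of the others. The ORFs spanned a median of 1015.5 nt (quartiles 703.5 and 1509.75 nt), against 1221 nt, and the span also differed between leader classes, from 1006.5 nt at 12 to under 20 nt to 1581 nt at 100 nt or more.

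In 5 cases a short-leader ORF had another as its upstream neighbour. How many such pairs a random placement would give was not computed, so no clustering is read from them. On the same strand, CLF1 lies 190 nt downstream of TML25, CSE1 186 nt of DOC1, RGD1 192 nt of TAE1 and VPS60 233 nt of RIB3, and IPK1 and OMS1 are divergent and 176 nt apart. TML25, a thioesterase gene, had 4 nt in Sigma and the 5 fractions called, against 5 nt in S288C, while CLF1 next to it had 1 nt in S288C. The export receptor gene CSE1 had 12 nt in 4 fractions, against 4 nt. The share of short leaders ran from 4.91% on chromosome II (11 of 224) to 11.8% on chromosome VI (6 of 51), beside 7.63% over all ORFs. These shares were not tested, and that of chromosome VI rests on few ORFs.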

How the data were processed

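Leader lengths were measured by TL-seq in Sigma 1278b with and without pyrophosphatase and in 2 S288C replicates, and by TATL-seq in 7 gradient fractions. The deposited files list 1 leader length in nt per gene and library, with no header, counts or depth, and the labels do not describe how 1 length was chosen. Bowtie, with no version, and the build sacCer3 for Sigma and TATL-seq are named per the submitters' processing notes; no source used here names a build for S288C. The number of ORFs called per library is given with the results, and with no depth only counting intervals over ORFs could be made.

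ORFs were kept by systematic name, and 57 snoRNA and tRNA genes were left out. Symbols, spans and neighbours came from RefSeq's gene list for R64, in which all 4551 ORFs were found; strand was read from the ORF name. The ORFs studied and the gene lists were chosen with earlier results of these data known. TATL-seq lengths are medians over the fractions with a call. Longer or shorter by 10 nt was counted where the S288C replicates lay within 10 nt. The trend over fractions used ORFs called in all 7. Named genes were up to 10 each by excess in Sigma, excess in TATL-seq, range over fractions, replicate difference and 1 nt in S288C. Up to 10 more were short in S288C, Sigma and every fraction called. Up to 6 per list and those called without pyrophosphatase were also named. Other names were chosen after their values were seen. Python 3.11.15, pandas 2.3.3, numpy 2.4.6, scipy 1.17.1, statsmodels 0.14.6 and matplotlib 3.10.9 were used.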

Additional observations from a re-analysis of the deposited data

How the results depend on the processing

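Of 98 alternative values, 85 stayed within the 95% interval of the share or within 1.5 times the count, and 13 did not. Several of the 85 could not have moved. Leaving out the COS genes cannot change the shares under 12 nt, since none was called in Sigma or a fraction. Requiring replicates within 10 nt cannot change the shares longer by 10 nt, which already required it. With S288C lowered by 5 nt, 393 ORFs were under 12 nt. With Sigma and TATL-seq raised by 5 nt, the shares under 12 nt were 31.4% in Sigma and 39% in TATL-seq. The shares at least 10 nt longer than S288C were then 48% and 42%. No share over all ORFs was computed with this shift. Subtracting the median difference over all ORFs, −5 nt, or counting differences of 5 nt is the same calculation. Both settings therefore had to give the same 48% and 42%. Counting differences of 20 nt gave 22% in Sigma and 14.2% in TATL-seq. By the lowest fraction, 67% were under 12 nt in TATL-seq. A range of 20 nt or more was held by 9.92%. The shifts by 5 nt, the omission of COS genes and that of single fractions were chosen after the data had been seen.

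With the ORFs chosen from 1 S288C replicate, their number was 286 to 310, the share under 12 nt 46.6% to 49.2% in Sigma and 53.4% to 55.8% in TATL-seq, and the share longer by 10 nt 37.7% to 39% in Sigma and 31.2% to 33.5% in TATL-seq. A call in a fraction was held by 71.3% to 75.2%, a range of 10 nt or more by 23.7% to 26.1%, and a call without pyrophosphatase by 3.15% to 3.55%. The trend test called 0 under each setting, which says little, since few outcomes could pass it. With each fraction left out, 57.2% to 60% were under 12 nt, 72.9% to 75.8% had a call and 19.6% to 23.3% a range of 10 nt or more. No paired analysis was possible because only the S288C group has replicates. The counts of a second in-frame methionine and of A upstream of the start codon, and the shifts from a check of the first base, were not run, since no sequence was used.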
